A study of Mus musculus with 6 samples.

Results

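The platelet glycoprotein and megakaryocyte granule genes are 10 genes out of 23146 transcript entries measured in 6 RNA libraries of EML cells. They were chosen by name, through their RefSeq accessions, and all 10 were found. They are the granule chemokines Pf4 and Ppbp, the integrin subunits Itga2b and Itgb3, the subunits Gp1ba, Gp1bb, Gp9 and Gp5 of the platelet receptor for von Willebrand factor, Vwf itself and the granule membrane receptor Treml1. EML is a mouse haematopoietic progenitor line, established with a dominant-negative retinoic acid receptor and grown in stem cell factor. The labels give its strain as BDF1, its tissue as bone marrow and its cell type as basophil. The study asked how mRNA levels respond to loss and gain of KAI1, the membrane tetraspanin encoded by Cd82. The groups were the KAI1 knockdown (n = 2), the knockdown control (n = 2), the KAI1 overexpression (n = 1) and the overexpression control (n = 1), all of them EML cells in medium with stem cell factor. The sources used here do not give the means of knockdown and overexpression or whether a group is 1 clone. The labels do not say whether replicates came from separate cultures, so a p-value here reflects library-to-library spread that may be technical alone.

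Megakaryocytes are the bone marrow cells that shed platelets. Their membrane carries the integrin of Itga2b and Itgb3, which binds fibrinogen, and the glycoprotein Ib-IX-V complex, which binds von Willebrand factor, and their alpha granules store chemokines, von Willebrand factor and Treml1. The lineage shares a progenitor and the factors Gata1, Nfe2 and Zfpm1 with red cells, and Itga2b also marks early haematopoietic progenitors. Some of these genes are used elsewhere, since mast cells carry Itgb3 with its other partner Itgav and endothelial cells make von Willebrand factor.

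Values are the authors' RPKM, reads relative to entry length and to mapped reads, which allows levels of different genes to be compared. Estimated from the steps of low values, the depth was 12800000 and 19500000 reads in the KAI1 knockdown, 19100000 and 10050000 in its controls, 19900000 in the KAI1 overexpression and 25700000 in its control. Cd82 stood at 7.65 and 6.91 RPKM in the knockdown against 43.9 and 13.8 RPKM in the controls, and at 15.2 RPKM in the overexpression against 11.9 RPKM in its control. The 2 knockdown controls were not alike. The summed level of 11 mast cell markers was 8880 and 7860 RPKM in the knockdown against 77888 and 16649 RPKM in controls 1 and 2, and 27976 RPKM in the overexpression against 6545 RPKM in its control. The summed level of the erythroid markers ran the other way, at 3740 and 4531 RPKM in the knockdown against 114 and 4917 RPKM in controls 1 and 2, and 1070 RPKM in the overexpression against 3151 RPKM in its control. Knockdown control 1 therefore stands apart, and the knockdown differences of the members and of the list genes given with a fit are also stated without it.

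Platelet genes were expressed in every library, and 6 of the 10 stood above 1 RPKM in all 6. These were Pf4, Ppbp, Itga2b, Itgb3, Gp1ba and the entry that holds Gp1bb. Gp5 was above 1 RPKM in 5 libraries, Gp9 in 4, Treml1 in 2 and Vwf in 1. By library, 8 and 9 members were above 1 RPKM in the knockdown against 7 and 8 in its controls, and 7 in the overexpression against 9 in its control. Over all entries 38.6% were above 1 RPKM in all 6 libraries and another 8.31% in some of them. In the order of their means over the 6 libraries the members ran Pf4, Itga2b, Ppbp, Gp9, Gp1ba, Itgb3, the Gp1bb entry, Gp5, Treml1 and Vwf, from 704 RPKM to 0.518 RPKM. Every pair of neighbours in this order overlapped in its ranges over the 6 libraries.

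**Figure D1:**
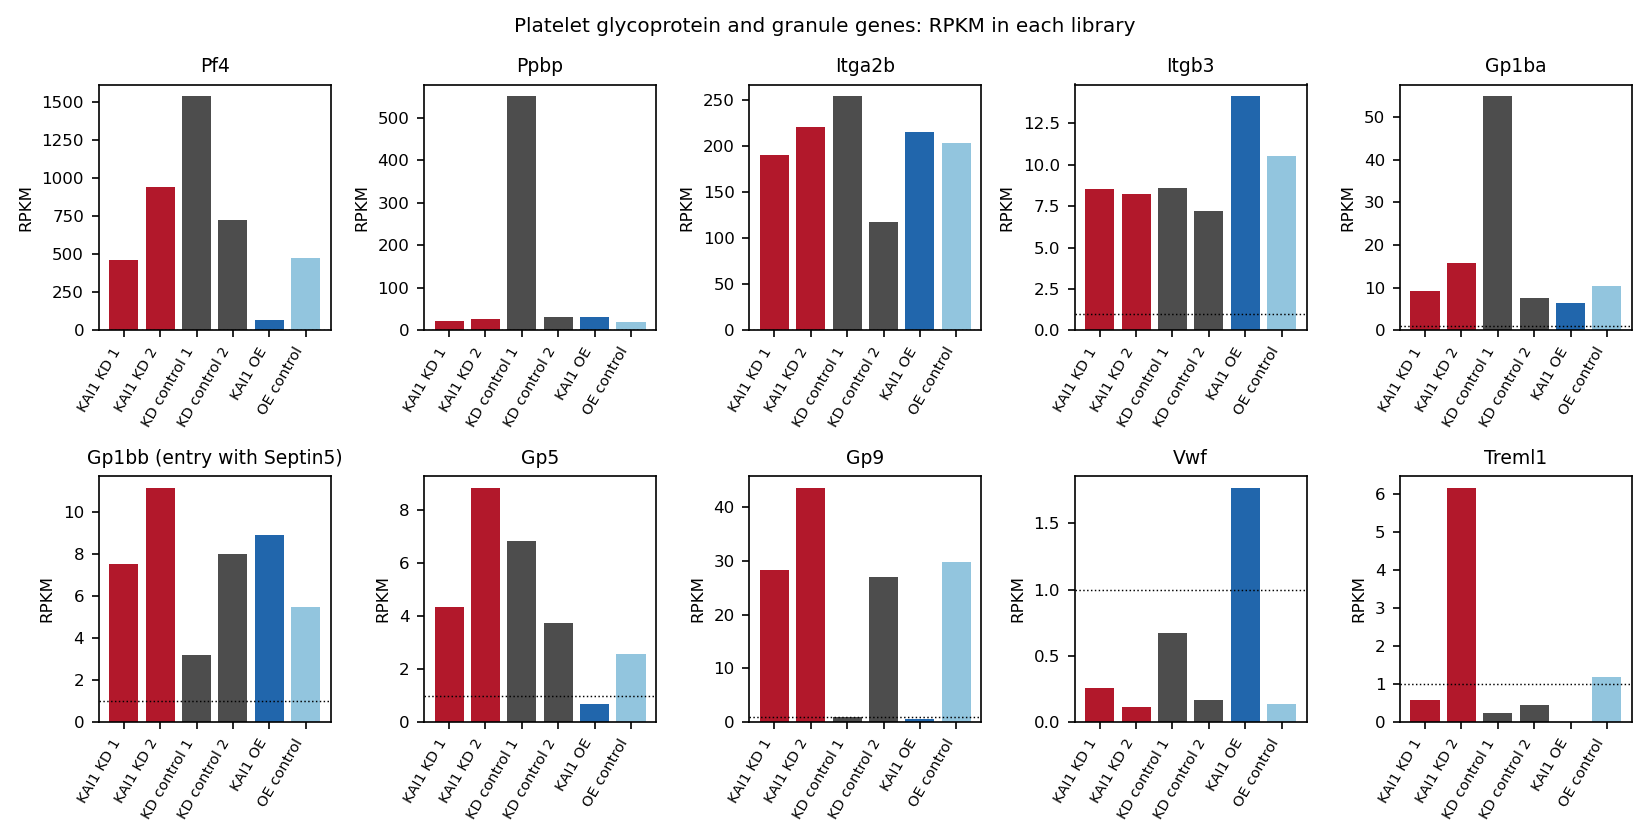
RPKM (y axis, from 0, its own scale in each panel) of the 10 members in each library (x axis; KD is knockdown, OE overexpression), 1 bar per library, with a dotted line at 1 RPKM. Ppbp and Gp1ba are highest in knockdown control 1 at 550 and 54.9 RPKM, and Gp9 is below 1 RPKM in that library and in the KAI1 overexpression.

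Pf4 and Ppbp encode CXC chemokines that platelets release from alpha granules, platelet factor 4 and the precursor of beta-thromboglobulin. They are neighbours on chromosome 5 (on mm9, Pf4 at 91201461 to 91202409 and Ppbp at 91197544 to 91199086). Pf4 stood at 463 and 947 RPKM in the knockdown against 1541 and 729 RPKM in the controls, and at 67.9 RPKM in the overexpression against 479 RPKM in its control. The knockdown and its controls overlapped, and the overexpression library was the lowest of the 6. Pf4 ranked between 112 and 303 among all entries in 5 libraries and 1360 in the overexpression, where it was 6.96-fold lower than in the control on the RPKM + 1 scale.

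Ppbp stood at 21.5 and 26.5 RPKM in the knockdown against 550 and 31.1 RPKM in the controls, and at 30.8 RPKM in the overexpression against 20.6 RPKM in its control. A single library, knockdown control 1, was far above the rest, and the other 5 lay between 20.6 and 31.1 RPKM. The ratio of Pf4 to Ppbp was 21.5 and 35.8 in the knockdown against 2.80 and 23.4 in the controls, and 2.20 in the overexpression against 23.2 in its control. The ratio was thus low in knockdown control 1, where Ppbp was high, and in the overexpression, where Pf4 was low. Of 5 other chemokine genes beside them on chromosome 5, Cxcl1, Cxcl3, Cxcl5 and Cxcl15 lay below 1 RPKM in every library. The fifth, Cxcl2, stood at 4.92 and 1.95 RPKM in the knockdown against 0.221 and 3.51 RPKM in the controls, and at 0.645 RPKM in the overexpression against 3.85 RPKM in its control.

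The 250 bases before each start site are shown for this pair because the neighbours parted (RefSeq, build GRCm38.p6, plus strand; Pf4 at chr5:90772185-90772434 and Ppbp at chr5:90768268-90768517). Capitals mark GATAA, the core bound by GATA factors, and GGAAG, a core bound by ETS factors such as Fli1, searched on both strands, so that TTATC and CTTCC are their reverse.
Pf4: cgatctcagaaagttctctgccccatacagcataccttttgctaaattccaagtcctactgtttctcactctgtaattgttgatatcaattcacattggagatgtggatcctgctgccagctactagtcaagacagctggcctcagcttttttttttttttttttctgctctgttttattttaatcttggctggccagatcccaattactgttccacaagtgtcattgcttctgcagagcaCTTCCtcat
Ppbp: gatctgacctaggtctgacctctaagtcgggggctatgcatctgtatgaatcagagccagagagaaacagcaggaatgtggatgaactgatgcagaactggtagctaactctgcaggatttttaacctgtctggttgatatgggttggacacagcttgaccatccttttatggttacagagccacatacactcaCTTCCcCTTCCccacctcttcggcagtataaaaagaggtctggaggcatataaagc
Neither window holds GATAA, and GGAAG is found once for Pf4, with its leftmost base at -9 from the start site, and at -56 and -50 for Ppbp.

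The integrin subunits varied least among the members above 1 RPKM in all libraries. Itga2b (chromosome 11, 102314611 to 102331197 on mm9), which encodes the alpha chain CD41, stood at 190 and 220 RPKM in the knockdown against 254 and 118 RPKM in the controls, and at 215 RPKM in the overexpression against 203 RPKM in its control. Both knockdown libraries lay between the controls, and the span from the lowest to the highest library was 2.15-fold. Itgb3 (chromosome 11, 104469314 to 104531785), the beta chain CD61, stood at 8.53 and 8.24 RPKM in the knockdown against 8.59 and 7.23 RPKM in the controls, and at 14.1 RPKM in the overexpression against 10.5 RPKM in its control. Per length, the alpha chain exceeded the beta chain 22.3-fold and 26.7-fold in the knockdown against 29.6-fold and 16.3-fold in the controls, and 15.2-fold in the overexpression against 19.3-fold in its control. Itgav, the other partner of Itgb3, was lower than Itgb3 in every library, at 2.13 and 1.88 RPKM in the knockdown against 5.17 and 2.44 RPKM in the controls, and 1.51 RPKM in the overexpression against 1.32 RPKM in its control.

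The glycoprotein Ib-IX-V genes did not move together. Gp1ba (chromosome 11, 70452624 to 70455557), the chain that binds von Willebrand factor, stood at 9.31 and 15.9 RPKM in the knockdown against 54.9 and 7.59 RPKM in the controls, and at 6.32 RPKM in the overexpression against 10.4 RPKM in its control. Knockdown control 1 was the highest library and the other 5 lay between 6.32 and 15.9 RPKM. Gp9 (chromosome 6, 87728130 to 87729756), the small chain needed to bring the complex to the surface, stood at 28.3 and 43.6 RPKM in the knockdown against 0.959 and 26.9 RPKM in the controls, and at 0.467 RPKM in the overexpression against 29.8 RPKM in its control. It was low in knockdown control 1 and in the overexpression, with about 16 and 8 estimated reads, where the other 4 libraries had between 238 and 750. The span of Gp9 was 93.5-fold, and 98.3% of the 10112 entries averaging 1 RPKM or more over all libraries had a smaller range on the log2(RPKM + 1) scale.

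Gp5 (chromosome 16, 30307771 to 30310867), a chain that thrombin cleaves, stood at 4.34 and 8.86 RPKM in the knockdown against 6.84 and 3.75 RPKM in the controls, and at 0.687 RPKM in the overexpression against 2.58 RPKM in its control. The overexpression library was the lowest of the 6, and the knockdown and its controls overlapped. Gp1bb, the chain bound to Gp1ba by a disulfide bond, shares its entry with the adjoining gene Septin5 (chromosome 16, 18620412 to 18630031), so its own level cannot be told from these values. The shared entry stood at 7.49 and 11.1 RPKM in the knockdown against 3.20 and 7.99 RPKM in the controls, and at 8.92 RPKM in the overexpression against 5.49 RPKM in its control.

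Within the complex, the ratio of Gp9 to Gp1ba was 3.03 and 2.74 in the knockdown against 0.0175 and 3.55 in the controls, and 0.0738 in the overexpression against 2.86 in its control. In 4 libraries Gp9 thus exceeded Gp1ba by a similar factor, and in knockdown control 1 and the overexpression Gp1ba exceeded Gp9 by 57.2-fold and 13.6-fold. The ratio of Gp5 to Gp1ba was 0.466 and 0.557 in the knockdown against 0.125 and 0.494 in the controls, and 0.109 in the overexpression against 0.247 in its control. Since the cells were measured in bulk, fewer cells that make a gene and less RNA per cell cannot be told apart.

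**Figure D2:**
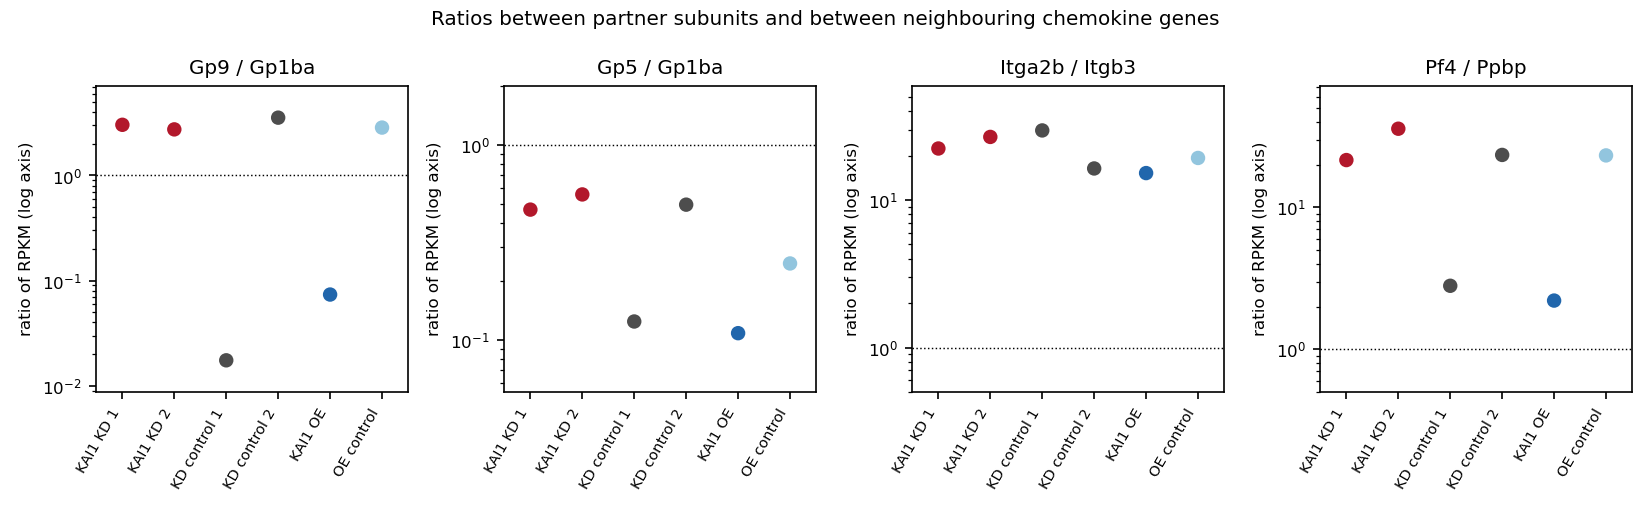
Ratio of RPKM values (y axis, logarithmic) in each library (x axis) for Gp9 over Gp1ba, Gp5 over Gp1ba, Itga2b over Itgb3 and Pf4 over Ppbp, 1 point per library, with a dotted line at 1. Gp9 over Gp1ba is 0.0175 in knockdown control 1 and 0.0738 in the KAI1 overexpression and lies between 2.74 and 3.55 elsewhere, whereas Itga2b over Itgb3 stays between 15.2 and 29.6.

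The 250 bases before the start sites of these 3 genes are shown because their levels parted within 1 complex (RefSeq, GRCm38.p6; Gp1ba at chr11:70638872-70639121 and Gp9 at chr6:87777820-87778069 on the plus strand, Gp5 at chr16:30310782-30311031 on the minus strand). Capitals mark the same GATAA and GGAAG matches on either strand.
Gp1ba: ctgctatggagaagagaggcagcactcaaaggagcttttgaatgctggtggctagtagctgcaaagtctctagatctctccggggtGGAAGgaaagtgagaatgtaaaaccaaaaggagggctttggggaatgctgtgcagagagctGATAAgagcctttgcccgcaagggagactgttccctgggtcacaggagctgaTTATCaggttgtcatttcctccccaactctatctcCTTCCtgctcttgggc
Gp9: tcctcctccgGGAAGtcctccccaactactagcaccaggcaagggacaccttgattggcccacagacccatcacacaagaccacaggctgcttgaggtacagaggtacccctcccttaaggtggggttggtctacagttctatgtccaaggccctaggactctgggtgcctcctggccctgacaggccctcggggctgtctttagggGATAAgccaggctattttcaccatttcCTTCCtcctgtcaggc
Gp5: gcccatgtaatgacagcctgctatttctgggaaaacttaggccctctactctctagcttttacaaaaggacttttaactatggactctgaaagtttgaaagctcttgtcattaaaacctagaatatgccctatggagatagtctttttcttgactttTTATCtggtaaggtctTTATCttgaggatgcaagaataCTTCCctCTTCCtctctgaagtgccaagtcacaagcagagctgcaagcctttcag
Each of the 3 windows holds both motifs, with GATAA at -103 and -51 for Gp1ba, at -43 for Gp9 and at -93 and -77 for Gp5 (leftmost base). Of the 8 members with a sequence in the table, GATAA was found in these 3 and GGAAG in 8, against 22.5% and 64.1% of 32536 windows of the same length over all genes. No match of 1 motif overlapped the other in these windows. A match is a description of the letters only.

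Vwf and Treml1 were the lowest members by their means, each above 1 RPKM in at most 2 libraries. Vwf (chromosome 6, 125502966 to 125636697), the multimeric ligand of the complex, stood at 0.259 and 0.116 RPKM in the knockdown against 0.670 and 0.162 RPKM in the controls, and at 1.77 RPKM in the overexpression against 0.133 RPKM in its control. The overexpression library was the highest, with about 311 estimated reads against 30 in its control. The endothelial genes Kdr, Tek and Emcn were listed at 0 in all 6 libraries and Cdh5 did not exceed 0.019 RPKM. Of the same list, Tie1 stood at 0.432 and 0.595 RPKM in the knockdown against 0 and 0.0254 RPKM in the controls, and was listed at 0 in the overexpression against 0.0389 RPKM in its control. Plvap lay between 0.417 and 0.804 RPKM in the 6 libraries, while Pecam1 and Egfl7, which blood cells also express, stood above 1 RPKM in all of them. Treml1 (chromosome 17, 48499241 to 48506471) stood at 0.568 and 6.17 RPKM in the knockdown against 0.239 and 0.460 RPKM in the controls, was listed at 0 in the overexpression and stood at 1.20 RPKM in its control. KAI1 knockdown replicate 2 was the highest library, with about 147 estimated reads against 9 in replicate 1.

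The knockdown was tested with limma on log2(RPKM + 1) over the 10113 entries that averaged 1 RPKM or more in its 4 libraries, of which 3 (0.0297%) were called at an adjusted p below 0.05. Of the 9 members in the test, limma called 0, with 0 at an unadjusted p below 0.05 where 3.32% of all entries were, and adjusted p-values ran between 0.830 and 0.937. Vwf was under the filter. Treml1, whose knockdown pair stood above both controls, passed the filter only through KAI1 knockdown replicate 2 and is left out of the next counts. Of the other 8 tested members the knockdown pair stood above both controls in 1, Gp9, and below both in 1, Ppbp, where the shares over all entries were 21.5% and 17.0%. The median difference of the 9, Treml1 included, was 0.24 on the log2 scale, against 0.03 over all entries. Without knockdown control 1 these medians were 0.37 and 0.03. An exact permutation test of 2 against 2 libraries cannot give a two-sided p below 0.333.

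The largest differences were those of Ppbp and Gp9, in opposite directions. Ppbp averaged 24.0 ± 3.52 RPKM in the knockdown and 291 ± 367 RPKM in the controls (SD, n = 2 each), a log2 difference of -2.42 (SE 1.41, limma adjusted p = 0.830). Gp9 averaged 36.0 ± 10.9 RPKM in the knockdown and 13.9 ± 18.4 RPKM in the controls (SD, n = 2 each), a log2 difference of 2.29 (SE 1.33, limma adjusted p = 0.830). In both the SD of the controls exceeded their mean. Without knockdown control 1 the differences were -0.37 for Ppbp and 0.37 for Gp9. Without knockdown control 2 they were -4.47 and 4.21, in a fit where the lone control is assumed to vary like the knockdown pair. Under the alternatives that kept all libraries the limma adjusted p of each lay between 0.817 and 0.999.

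The other members differed by less than 1.5 on the log2 scale. Treml1 was 1.32 higher (SE 0.80), the Gp1bb entry 0.73 higher (SE 0.46), Gp5 0.25 higher (SE 0.44), Itga2b 0.24 higher (SE 0.45) and Itgb3 0.08 higher (SE 0.22). Gp1ba differed by -0.73 (SE 0.97) and Pf4 by -0.68 (SE 0.57). Without knockdown control 1 Gp1ba turned to 0.62, and without control 2 Itga2b, Itgb3 and Gp5 turned to -0.31, -0.031 and -0.11. Gp5 also turned to -0.19 without KAI1 knockdown replicate 2. Without knockdown control 1 Treml1 was 1.20, Itga2b 0.79, Gp5 0.61 and Itgb3 0.19. Treml1 was 0.22 without KAI1 knockdown replicate 2, the Gp1bb entry was 0.18 without knockdown control 1, and Pf4 was -0.14 without knockdown control 1. The part of the mast cell and erythroid signal of knockdown control 1 in these differences was not tested.

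The overexpression was compared in 1 library against 1, with no replicate check and no test. Among the 9936 entries that averaged 1 RPKM or more in the pair, 518 (5.21%) were at least 2-fold lower and 489 (4.92%) at least 2-fold higher on the RPKM + 1 scale. Of the 8 members among them, 3 were at least 2-fold lower and 0 at least 2-fold higher. The lower ones were Gp9 by 21.0-fold, Pf4 by 6.96-fold and Gp5 by 2.12-fold, log2 ratios of -4.39, -2.80 and -1.09. These sizes depend on the pseudocount for the low genes, since with 0.1 in place of 1 RPKM the log2 ratios were -5.72 for Gp9, -2.82 for Pf4 and -1.77 for Gp5. The median log2 ratio of the 8 was -0.28, against 0.01 over all entries. Itga2b, Itgb3, Ppbp, the Gp1bb entry and Gp1ba had log2 ratios of 0.08, 0.39, 0.56, 0.61 and -0.64. In the same library 7 of 7 erythroid entries past the filter were at least 2-fold lower and 9 of 11 mast cell markers at least 2-fold higher, and their part in the platelet gene differences was not tested.

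**Figure D3:**
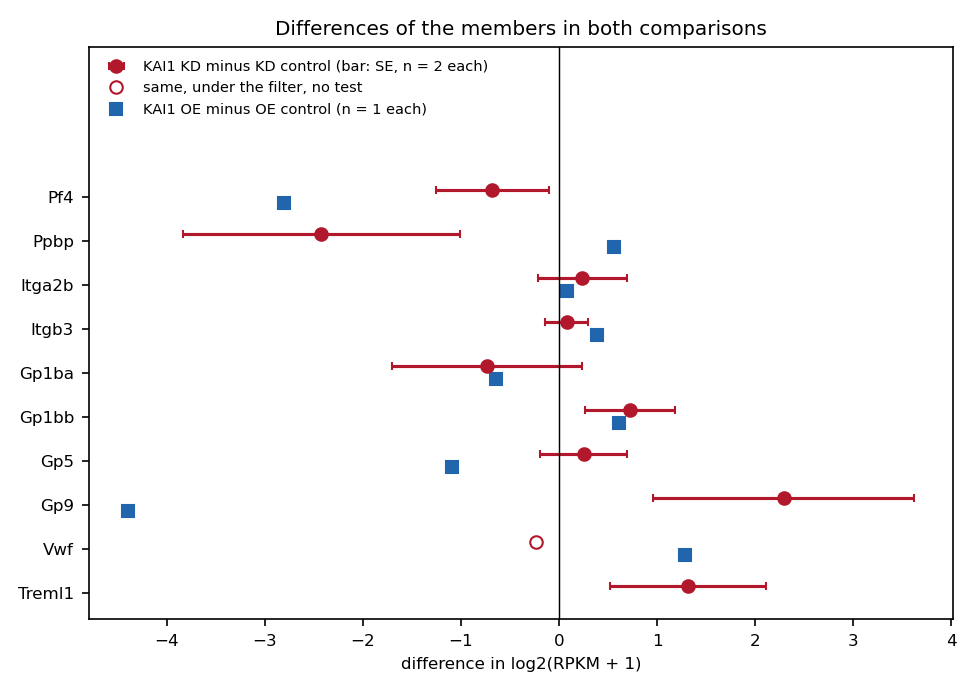
Difference in log2(RPKM + 1) (x axis) of each member (y axis) between KAI1 knockdown and its control (red circles, bars are SE from limma, n = 2 each, open circle for Vwf, which was not tested) and between KAI1 overexpression and its control (blue squares, n = 1 each). The bars of Ppbp and Gp9 are the widest, with SE 1.41 and 1.33, and no square is drawn for Treml1, which was listed at 0 in the overexpression.

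The median absolute log2 difference was larger over the 10 members than over the 10112 entries averaging 1 RPKM or more in 13 of the 15 pairs of libraries. The members were not filtered, and Vwf, with a mean of 0.518 RPKM, lies outside those entries. Between the overexpression and its control the median absolute log2 difference was 0.86 over the 10 members and 0.28 over 10112 entries, and 5 members against 9.78% of entries were at least 2-fold apart. Between knockdown controls 1 and 2 it was 1.09 over the members and 0.50 over the 10112 entries, with 6 members and 21.2% of entries at least 2-fold apart. Among the entries of the knockdown test, 4 members (Pf4, Ppbp, Itga2b and Gp1ba) were at least 2-fold higher in control 1 than in control 2, where 12.8% of entries were, and 2 (Gp9 and the Gp1bb entry) at least 2-fold lower, where 8.56% were. The closest pair over the members was KAI1 knockdown replicate 1 and the overexpression control, at 0.15 against 0.22 over the 10112 entries, with 0 members 2-fold apart. KAI1 knockdown replicate 1 and knockdown control 2 also lay closer over the members, at 0.19 against 0.25. These medians describe members of which several are related genes, and 1 library enters several pairs.

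**Figure D4:**
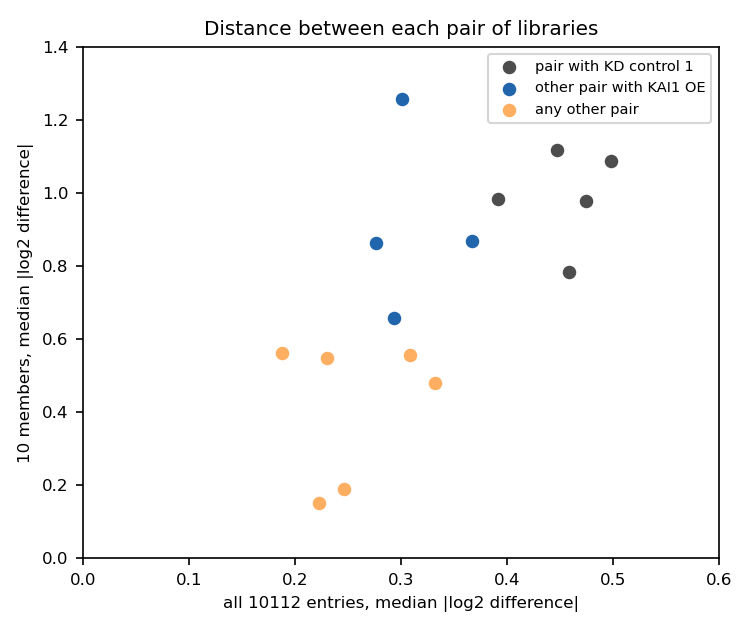
Median absolute difference in log2(RPKM + 1) between 2 libraries over the 10 members (y axis) against that over 10112 entries (x axis), 1 point for each pair of libraries. Pairs with knockdown control 1 (grey) and other pairs with the KAI1 overexpression (blue) lie above 0.65 on the y axis, and the remaining pairs (orange) between 0.15 and 0.56.

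Regulators of the lineage were present beside the surface and granule genes. Of 13 transcription factors in the list, 12 were tested and limma called 0, with 6 above both controls and 1 below, where the shares over all entries were 21.5% and 17.0%. One of the 6, Meis1, passed the filter only through the knockdown. Against knockdown control 2 alone 9 of the 12 were above and 1 below, where 42.0% and 36.0% of all entries were. Nfe2, a factor of platelet release, stood at 131 and 133 RPKM in the knockdown against 9.28 and 126 RPKM in the controls, and 48.2 RPKM in the overexpression against 67.2 RPKM in its control. It was low in knockdown control 1, and its log2 difference was 1.88 (SE 1.25, limma adjusted p = 0.830), and 0.063 without that control. Zfpm1, which encodes the Gata1 partner FOG1, stood at 29.6 and 42.3 RPKM in the knockdown against 14.2 and 15.3 RPKM in the controls, and 10.2 RPKM in the overexpression against 53.8 RPKM in its control. The knockdown pair stood above both controls, which were alike here, with a log2 difference of 1.21 (SE 0.28, limma adjusted p = 0.830), or 1.16 without knockdown control 1, and the overexpression was 4.88-fold lower than its control on the RPKM + 1 scale.

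**Figure D5:**
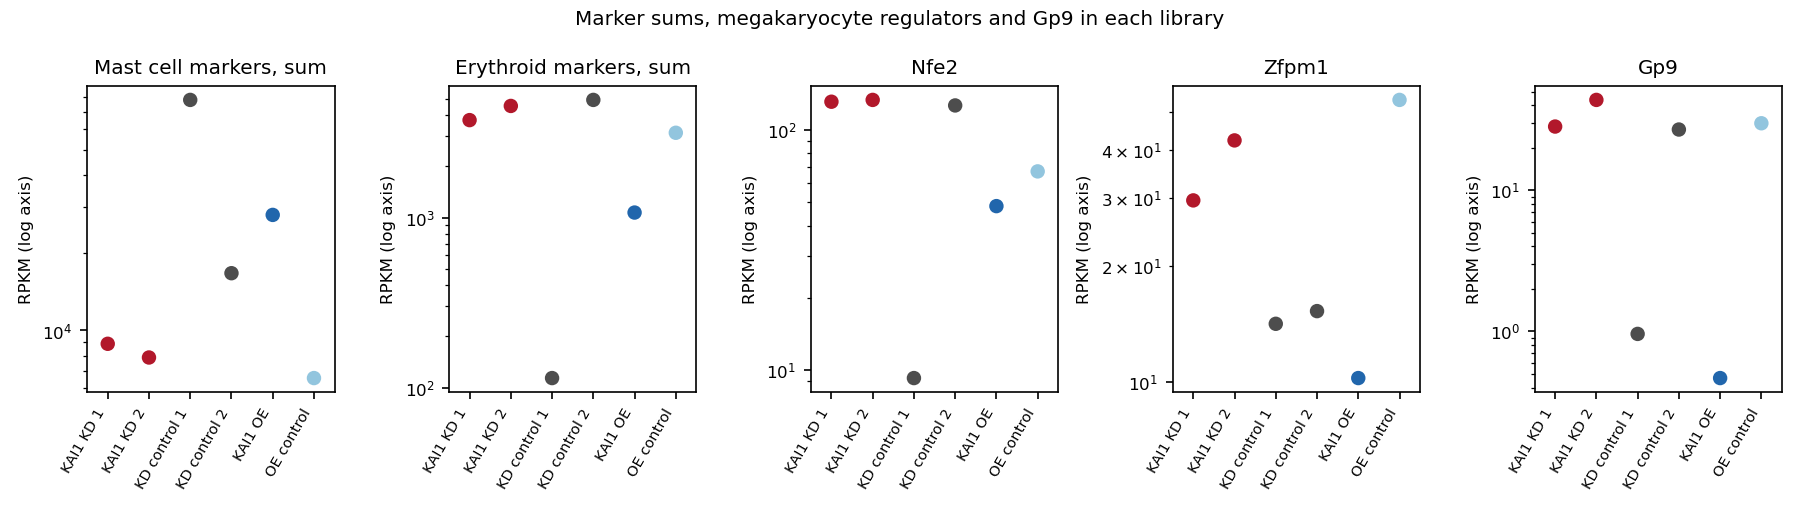
RPKM (y axis, logarithmic, its own scale in each panel) in each library (x axis) of the summed mast cell markers, the summed erythroid markers, Nfe2, Zfpm1 and Gp9, 1 point per library. Zfpm1 is at 29.6 and 42.3 RPKM in the KAI1 knockdown against 14.2 and 15.3 RPKM in its controls, and Gp9 is low in knockdown control 1 and in the KAI1 overexpression, where the mast cell sum is highest.

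Among 12 receptors for platelet agonists, Gp6, Clec1b, P2ry12 and Cd36 were listed at 0 in all 6 libraries. The collagen receptor gene Gp6 and the ADP receptor gene P2ry12 were thus not seen, which does not cover every receptor for collagen or ADP. The collagen-binding integrin gene Itga2 and the other ADP receptor gene P2ry1, of the same list, were above 0 in all 6 libraries. Itga2 exceeded 1 RPKM in 1 library, knockdown control 1, and P2ry1 in 2, KAI1 knockdown replicate 2 and knockdown control 1. Of the 5 receptors tested, limma called 0, with 1 above both controls and 1 below, where the shares over all entries were 21.5% and 17.0%. Among the thrombin receptor genes F2r, which encodes PAR1, was the most abundant, at 106 and 134 RPKM in the knockdown against 327 and 123 RPKM in the controls, and 278 RPKM in the overexpression against 81.2 RPKM in its control. F2rl3, which encodes PAR4, stood at 24.6 and 24.0 RPKM in the knockdown against 1.78 and 22.7 RPKM in the controls, and 4.49 RPKM in the overexpression against 15.2 RPKM in its control. F2rl2, which encodes PAR3, stood at 7.77 and 10.3 RPKM in the knockdown against 29.7 and 11.4 RPKM in the controls, and 39.3 RPKM in the overexpression against 7.67 RPKM in its control. F2rl3 was thus low in the same 2 libraries as Gp9, and F2rl2 and F2r were high in them. P2rx1, an ATP-gated channel of platelets, lay between 50.4 and 177 RPKM in the 6 libraries.

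Of 15 alpha granule genes, 7 stood above 1 RPKM in all libraries, F5, Mmrn1 and Serpine2 were listed at 0 in all, and Selp, the gene of P-selectin, reached 0.011 RPKM at most. Of the 7 tested limma called 0, with 0 above both controls and 1 below, where the shares over all entries were 21.5% and 17.0%. F13a1, the coagulation factor XIII A chain, stood at 14.0 and 15.3 RPKM in the knockdown against 6.35 and 14.8 RPKM in the controls, and 3.18 RPKM in the overexpression against 18.2 RPKM in its control. The growth factor gene Pdgfa stood at 4.71 and 3.75 RPKM in the knockdown against 10.7 and 4.26 RPKM in the controls, and 3.09 RPKM in the overexpression against 3.48 RPKM in its control.

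Of 13 dense granule genes limma called 0 of 11 tested, with 1 above both controls and 5 below, where the shares over all entries were 21.5% and 17.0%. One of the 5, Lyst, passed the filter only through knockdown control 1. Rab27b, a GTPase of granule secretion that mast cells also use, stood at 4.65 and 7.05 RPKM in the knockdown against 26.3 and 8.37 RPKM in the controls, and 22.2 RPKM in the overexpression against 3.15 RPKM in its control. Lyst, a regulator of lysosome-related organelles, stood at 0.112 and 0.0533 RPKM in the knockdown against 3.76 and 0.145 RPKM in the controls, and 2.17 RPKM in the overexpression against 0.0955 RPKM in its control.

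Integrin activation and signalling genes were broadly present, with 12 of 13 above 1 RPKM in all libraries. Limma called 0 of 12 tested, with 2 above both controls (21.5% over all entries) and 7 below (17.0% over all entries). Against knockdown control 2 alone 4 were above and 7 below, where 42.0% and 36.0% of all entries were. Plek, a substrate of protein kinase C in platelets, stood at 40.8 and 42.8 RPKM in the knockdown against 159 and 58.7 RPKM in the controls, and 63.2 RPKM in the overexpression against 38.5 RPKM in its control. The adaptor gene Fyb1 differed by -0.68 on the log2 scale in the knockdown (SE 0.37, limma adjusted p = 0.830), and by -0.24 without knockdown control 1. Of 10 cytoskeleton genes of platelet formation limma called 0 of 7 tested. Of these 7, 2 were above both controls and 2 below, where the shares over all entries were 21.5% and 17.0%. Tubb1, the tubulin of the platelet marginal band, was listed at 0 in all libraries but KAI1 knockdown replicate 2, where it stood at 0.158 RPKM. Flna and Actn1, which encode actin cross-linkers, differed by 0.77 and 0.76 in the knockdown (SE 0.28 and 0.37, limma adjusted p = 0.830 each), and by 0.54 and 0.33 without knockdown control 1.

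The entries nearest to a member in pattern were sought for the 2 highest members, as the smallest mean absolute difference of log2(RPKM + 1) values centred over the 6 libraries. For Pf4 they were Gm15915, Grap and Ddx3y, at 0.33, 0.43 and 0.45, where the median over entries averaging 1 RPKM or more was 1.05. For Itga2b they were Arrdc1, Tbc1d20 and Pi4k2a, at 0.02, 0.03 and 0.07, where the median was 0.36.

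Markers of other cell types were checked beside these genes. All 11 mast cell markers were tested, and 7 were lower in the knockdown pair than in both controls, where the share over all entries was 17.0%. Mcpt4 stood at 66.8 and 165 RPKM in the knockdown against 9416 and 221 RPKM in the controls. Tpsb2 stood at 25.7 and 44.9 RPKM in the knockdown against 3379 and 45.1 RPKM in the controls. Their log2 differences were -3.77 and -3.50, and -1.06 and -0.40 without knockdown control 1. Fcer1a, which encodes the ligand-binding chain of the IgE receptor, had no RPKM above 0 in KAI1 knockdown replicate 1 or in knockdown control 2. Of 8 erythroid genes found, the globin gene Hbb-bs stood at 312 and 435 RPKM in the knockdown against 2.36 and 351 RPKM in the controls. The globin gene Hba-a2, in the first of its entries, stood at 891 and 1178 RPKM in the knockdown against 21.7 and 1302 RPKM in the controls. Globin genes made most of the erythroid sum. Epor, of the same list, stood at 9.63 and 12.7 RPKM in the knockdown against 15.6 and 14.8 RPKM in the controls, below both. The neutrophil and monocyte list summed to between 910 and 1725 RPKM in the 6 libraries, most of it from Mpo and Ctsg. Mpo stood at 750 and 470 RPKM in the knockdown against 7.84 and 538 RPKM in the controls. In the overexpression it stood at 45.8 RPKM against 661 RPKM in its control. Mpo was thus low in knockdown control 1 and in the overexpression, where Ctsg was highest, at 1080 and 1295 RPKM. Elane did not exceed 0.13 RPKM. The endothelial list summed to between 46.7 and 114 RPKM, most of it from Pecam1 and Egfl7. The stem and progenitor list summed to between 229 and 984 RPKM, with Cd34 at 65.7 and 77.9 RPKM in the knockdown against 0.859 and 64.7 RPKM in the controls and Ly6a at 95.9 and 205 RPKM in the knockdown against 748 and 217 RPKM in the controls. Of 11 genes at the members' loci Treml2, beside Treml1, stood at 18.2 and 21.0 RPKM in the knockdown against 3.09 and 21.4 RPKM in the controls, while Trem2 and Trem3 were listed at 0 in all 6.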

How the data were processed

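Per the file headers, the authors deposited RPKM values per RefSeq transcript entry, in 1 table for each of 6 libraries. Cufflinks, Bowtie, TopHat2 2.0.9 and the build mm9 come from the submitters' processing notes, which give no settings. The sources used here do not give strandedness. Of 23170 entries, 24 repeats were dropped. RefSeq accessions gave symbols for 22836 entries and GENCODE for 129, while 181 had none. The reference build is GRCm38, so it served for names, transcript lengths and promoter letters, and entry coordinates are those of the files. Deposited starts were moved by 1, since end minus start equalled the gene length in 8124 entries and was 1 short of it in 523.

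Depth was taken as the number of reads with the most matches among those tried. A match was a low value that, times GENCODE transcript length, fell within 3% of 1, 2 or 3 reads. Matches numbered between 198 and 343 in a library, among 2037 to 2690 low values, so most low values did not match. The procedure was tested on simulated data, as was the limma fit. Estimated reads follow from it and are approximate.

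For the knockdown, limma 3.58.1 (R 4.3.3, mean-variance trend) was fitted to log2(RPKM + 1) of entries averaging 1 RPKM or more, two-sided, with Benjamini-Hochberg adjustment over all entries and a threshold of 0.05. The pseudocount of 1 understates changes of low genes. Tables were handled in Python 3.11.15. Alternatives were another pseudocount, filters, scalings, leaving out entries under 300 bp or a library, and a replicate block. Members and lists were chosen with earlier results of these data known. Beyond members, Septin5, Itgav and Cd82, genes were named as the 2 tested genes of each list with the largest knockdown difference, and for the 2 highest members the 3 entries nearest in pattern. Genes listed at 0 and single list members outside the rule were named after their values were seen.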

Additional observations from a re-analysis of the deposited data

How the results depend on the processing

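With 2 libraries a group the spread between the knockdown controls limits every result, and RPKM without counts gives no interval for low genes. Over all entries limma called 3 in the knockdown, 5 with a pseudocount of 0.1, 0 with no filter (the cause was not tested), and between 2 and 4 under the other settings that kept all libraries. Leaving out 1 library gave between 0 and 1045 calls, with 0 without either knockdown replicate, 16 without knockdown control 1 and 1045 without knockdown control 2. With the replicate block 4 entries and 0 members were called, and same-numbered libraries did not deviate together (correlation -0.08 over entries), so the numbers were not taken as pairs. With 1 library left out the knockdown difference lay between -0.31 and 0.79 for Itga2b, -0.031 and 0.19 for Itgb3, -2.08 and 0.62 for Gp1ba, and -0.19 and 0.69 for Gp5, each with both signs (for Itgb3 -0.031 without knockdown control 2). It lay between -4.47 and -0.37 for Ppbp, 0.37 and 4.21 for Gp9, -1.22 and -0.14 for Pf4, 0.18 and 1.27 for the Gp1bb entry and 0.22 and 2.41 for Treml1. No setting that kept all libraries turned the sign of a member. The count of entries at least 2-fold lower in the overexpression was 518, and 322 with a mean of at least 5 RPKM. Members above 1 RPKM in all 6 libraries numbered 6, and 7 at a level of 0.5 RPKM.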
